A study of Mus musculus with 6 samples.

Results

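Ciita, the class II transactivator, and 9 genes of the mouse MHC class II system (Cd74, H2-Aa, H2-Ab1, H2-Eb1, H2-DMa, H2-DMb1, H2-DMb2, H2-Oa and H2-Ob) were read in RNA sequencing libraries of small intestinal epithelium from mice with and without a Villin-CRE deletion of Prkci. Prkci encodes the atypical protein kinase C iota, which takes part in epithelial polarity. The members were the rows of the deposited count table with these symbols, and all 10 were found among 54446 rows. Each of the 10 passed the filter on low counts, which kept 15068 genes for testing.

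The knockout group held 3 Prkci flox/flox mice that also carried Villin-CRE, and the control group held 3 Prkci flox/flox mice without it. All were aged 3 to 4 months and were housed together. The Villin promoter drives Cre in intestinal epithelium, so Prkci was kept in the leukocytes and other cells of a knockout mouse, and the floxed alleles were shared by both groups. The mucosa was released from segments of 10 cm by EDTA and DTT. Titles say jejunum and the study's design text says jejunum-ileum, and no strain was given. H2 genes are polymorphic between strains, which can change how reads align.

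MHC class II molecules present peptides from endosomes to CD4 T cells. The alpha and beta chains (H2-Aa with H2-Ab1, and H2-Eb1 in strains with an E alpha chain) assemble with the invariant chain Cd74, which fills the groove until it is cut away. H2-DM then exchanges the remaining fragment for peptide, and H2-DO, made of H2-Oa and H2-Ob, restrains H2-DM and is known mainly from B cells. Ciita does not bind DNA by itself. It is recruited by RFX, CREB and NF-Y proteins at the X and Y boxes upstream of its target genes, and it is made constitutively in dendritic cells and B cells and on interferon-gamma in other cells. Enterocytes of the small intestine are known to carry class II molecules.

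Upstream stretches of 6 members were read from the RefSeq promoter table on GRCm38.p6, because the shared elements are what tie these genes to Ciita. They are written 5′ to 3′ on the strand of the gene, and capitals mark the Y box core TGATTGG, the X1 core GCAAC and the X2 forms TGATGC and TGACGTCA.
H2-Aa: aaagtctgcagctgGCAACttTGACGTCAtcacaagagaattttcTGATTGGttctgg
H2-Eb1: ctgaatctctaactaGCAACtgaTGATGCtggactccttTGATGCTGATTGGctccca
H2-DMb1: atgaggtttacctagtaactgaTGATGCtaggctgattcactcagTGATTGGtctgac
H2-DMb2: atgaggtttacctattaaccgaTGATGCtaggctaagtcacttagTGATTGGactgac
H2-Oa: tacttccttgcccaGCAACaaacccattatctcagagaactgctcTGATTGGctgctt
H2-Ob: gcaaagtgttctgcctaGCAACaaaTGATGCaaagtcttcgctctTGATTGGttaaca

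These stretches lie at chr17:34287861-34287918 (minus strand) for H2-Aa, and on the plus strand at chr17:34305761-34305818 for H2-Eb1, chr17:34153083-34153140 for H2-DMb1, chr17:34145112-34145169 for H2-DMb2, chr17:34092289-34092346 for H2-Oa and chr17:34238801-34238858 for H2-Ob. The 250 bases before each RefSeq start were searched on both strands. TGATTGG, the reverse complement of which holds the CCAAT of NF-Y sites, was found in 6 of the 7 members with an entry and in 7.23% of 32851 mouse promoters, and each stretch was placed to include it. GCAAC was found in 4 of the 6 members shown and in 29.9% of promoters, TGATGC in 4 and 9.18%, and TGACGTCA, a full CREB element, in 1 (H2-Aa) and 1.55%. In H2-Eb1 the second TGATGC abuts TGATTGG. The X1 core followed by the Y box core 15 to 50 bases on stood in 0.295% of promoters, and in H2-Aa, H2-Eb1, H2-Oa and H2-Ob the gap was 26, 25, 26 and 23 bases. The motifs were chosen from the known X and Y boxes, and a match of letters is a description of the sequence. The RefSeq start of H2-DMb2 lies 1942 bases inside the deposited gene span, and Ciita, Cd74 and H2-Ab1 are not shown. The 2 entries of H2-DMa start 12350 and 9664 bases from its deposited start and are not shown for that reason, and neither holds TGATTGG.

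The library totals were 18972906, 25258885 and 26687856 counts in knockout replicates 1, 2 and 3, against 22453798, 22511957 and 23008047 in control replicates 1, 2 and 3. Prkci had 21.5, 14.6 and 21.4 CPM (counts per 1000000, scaled by trimmed means) in the knockout libraries, against 44.6, 46.9 and 44.0 CPM in the control libraries, so the transcript was lower but present in each knockout library. Its adjusted p of 0.0719 did not pass the threshold (log2 fold change −1.24, SE 0.17, by edgeR). Epithelial genes dominated, with Vil1 at 3131 to 3422 CPM in knockout libraries and 3122 to 3178 CPM in control libraries. Leukocyte transcripts were present in each library, with Ptprc (CD45) at 65.0 to 98.9 CPM in knockouts and 55.4 to 76.7 CPM in controls. In bulk RNA, more cells of a type cannot be told apart from more RNA per cell. Replicates are separate mice, and p-values were two-sided and came from edgeR's quasi-likelihood test over all genes with Benjamini-Hochberg adjustment, at a threshold of 0.05.

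None of the 10 members passed the adjusted threshold in edgeR, where 0.0531% of all genes tested were called higher in knockouts. By unadjusted p, 6 of 10 were below 0.05 and higher in knockouts, beside 9.32% of all genes. All 10 log2 fold changes were positive, and their median was 0.71, beside 0.01 over all genes tested. H2-DMb2, H2-Oa and H2-Ob, whose positive values rested on knockout replicate 1, raised it, and the median of the other 7 was 0.57. In 3 of 10, namely Ciita, Cd74 and H2-Aa, each knockout library was above each control library, beside 10.0% of all genes. DESeq2 called 1 of 10, Ciita, with an adjusted p of 0.00562, where it called 3.60% of all genes higher, and limma-voom called 0 of 10 (0.0265% of all genes higher) with 5 past the unadjusted threshold (8.42%). The unadjusted edgeR count was 2 with the replicate number as a block, where Ciita and H2-Aa stayed and 9.32% of all genes passed. Dropping a single library gave 2 for knockout replicate 3 (7.13% of all genes), 3 for knockout replicate 2 (7.57%), 2 for control replicate 2 (6.23%) and 2 for control replicate 3 (6.19%). With library totals in place of scaling factors, which moved the median log2 fold change of all genes to −0.10, it was 3 (6.61%).

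**Figure D1:**
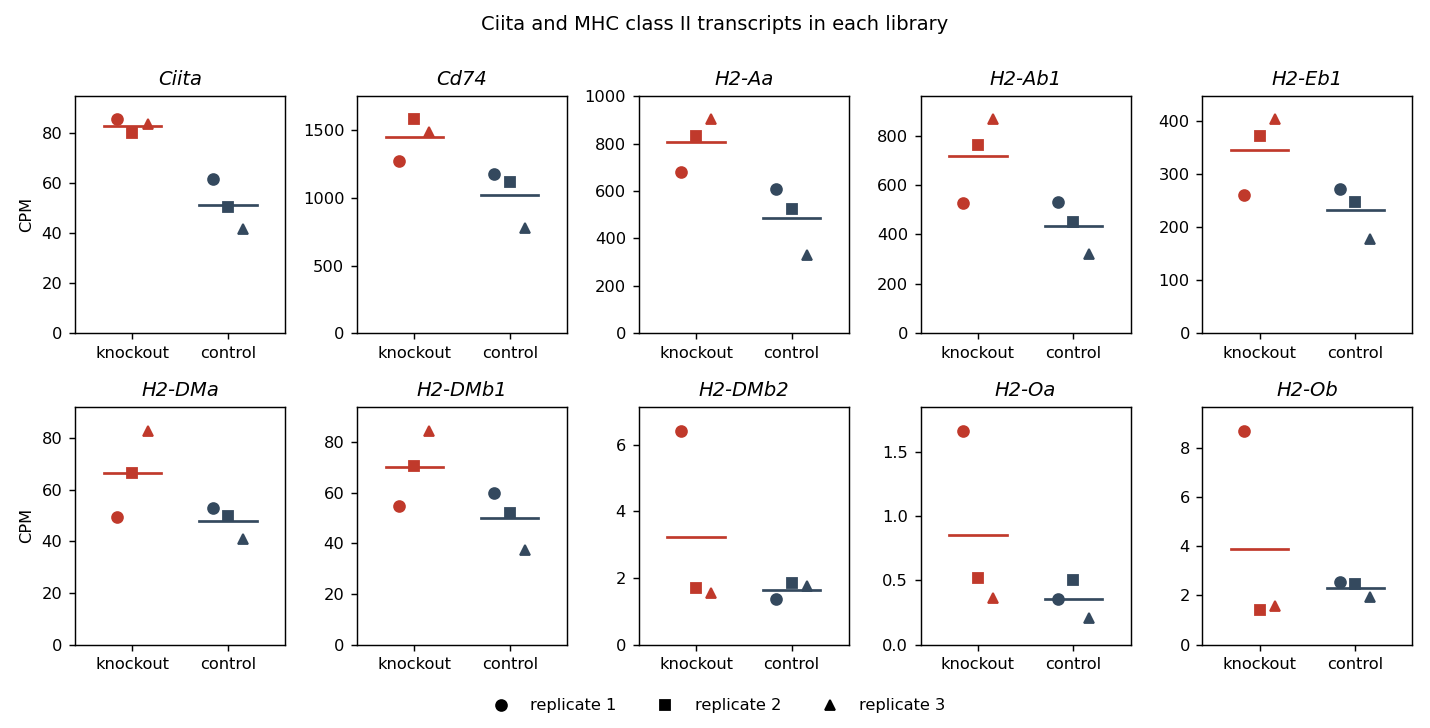
CPM of each of the 10 genes by library, with knockout on the left and control on the right of each panel, marker shape for the replicate number and a line at the group mean. Ciita, Cd74 and H2-Aa do not overlap between genotypes, while H2-DMb2, H2-Oa and H2-Ob are high in knockout replicate 1 and low elsewhere.

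Levels per kilobase of exon spread over more than 3 orders of magnitude. Per kilobase, Cd74 averaged 1029 ± 111 CPM in knockouts and 727 ± 151 CPM in controls (SD, n = 3 each), above H2-Aa at 713 ± 101 CPM in knockouts and 432 ± 126 CPM in controls. H2-Ab1 followed with 593 ± 143 CPM per kilobase in knockouts and 359 ± 86.6 CPM in controls, and H2-Eb1 with 263 ± 56.9 CPM in knockouts and 177 ± 37.3 CPM in controls. Next came H2-DMb1 (49.9 in knockouts and 35.5 in controls), H2-DMa (25.9 and 18.7 in the same order) and Ciita (10.0 and 6.21). H2-DMb2, H2-Ob and H2-Oa lay at the bottom, between 0.782 and 1.85 CPM per kilobase in knockouts and between 0.325 and 0.947 CPM in controls. Every gene was above the next in all 6 libraries, except that H2-DMb2 was above H2-Ob in 5 of 6. Within each genotype H2-Aa and H2-Ab1 differed by less than the larger of their SDs over mice, as did H2-DMb2, H2-Ob and H2-Oa among knockouts. Epcam, an epithelial adhesion protein, stood at 974 CPM per kilobase in knockouts and 758 CPM in controls on the same scale, close to Cd74. Itgax (CD11c), a marker of dendritic cells and some other leukocytes, stood at 1.93 CPM per kilobase in knockouts and 0.835 CPM in controls, and Ms4a1 (CD20) of B cells at 1.90 and 1.05 CPM.

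Ciita (ENSMUSG00000022504.10, chr16:10480059-10528418 on mm10) had the smallest spread over knockouts, relative to its mean, of the 10 genes. It had 85.3, 79.7 and 83.5 CPM in knockout libraries, against 61.6, 50.5 and 41.7 CPM in control libraries. The lowest knockout was above the highest control, and the spread lay among the controls. The mean was 82.8 ± 2.84 CPM in knockouts and 51.3 ± 9.98 CPM in controls (SD, n = 3 each), a ratio of 1.62. The log2 fold change was 0.69 (SE 0.15, 95% interval 0.34 to 1.04), with an adjusted p of 0.121 by edgeR. Over all alternatives it lay between 0.56 and 0.86. The counts are per gene and carry no information on which Ciita promoter was used. Dexi overlaps the Ciita locus, and its own counts were 102 to 112 in knockouts and 92 to 96 in controls.

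The classical chains and the invariant chain were higher in knockout replicates 2 and 3, with replicate 1 near the upper controls. H2-Aa (ENSMUSG00000036594.14, chr17:34282744-34287827), the A alpha chain, had 679, 832 and 902 CPM in knockout libraries, against 608, 524 and 331 CPM in control libraries. The groups did not overlap, and the log2 fold change was 0.72 (SE 0.24, adjusted p = 0.219 by edgeR). H2-Ab1 (ENSMUSG00000073421.5, chr17:34263209-34269418), the A beta chain, had 527, 760 and 866 CPM in knockout libraries, against 531, 450 and 323 CPM in control libraries. Here knockout replicate 1 lay just under control replicate 1, and the log2 fold change was again 0.72 (SE 0.25, adjusted p = 0.228 by edgeR). H2-Eb1 (ENSMUSG00000060586.10, chr17:34305877-34316199), the E beta chain, had 260, 371 and 402 CPM in knockout libraries, against 271, 247 and 177 CPM in control libraries. Its groups overlapped in the same way, with a log2 fold change of 0.57 (SE 0.22, adjusted p = 0.263 by edgeR). The E alpha gene is represented in the table by H2-Ea-ps, which was listed at 0 counts in all 6 libraries.

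Cd74 (ENSMUSG00000024610.14, chr18:60803848-60812646), the invariant chain, had 1277, 1582 and 1492 CPM in knockout libraries, against 1178, 1116 and 782 CPM in control libraries. The groups did not overlap, although knockout replicate 1 was closer to control replicate 1 than to the other knockouts. The log2 fold change was 0.50 (SE 0.19, adjusted p = 0.266 by edgeR). Proportions between the chains varied less than their levels. H2-Aa per count of H2-Ab1 was 1.29, 1.09 and 1.04 in knockouts, against 1.14, 1.16 and 1.03 in controls. H2-Eb1 per count of H2-Ab1 was 0.494, 0.488 and 0.465 in knockouts, against 0.510, 0.550 and 0.548 in controls, so each knockout was below each control in this ratio. Cd74 per count of H2-Aa was 1.88, 1.90 and 1.65 in knockouts, against 1.94, 2.13 and 2.36 in controls, again with each knockout below each control.

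H2-DM, the peptide exchange factor, is encoded by H2-DMa and by the near copies H2-DMb1 and H2-DMb2. H2-DMa (ENSMUSG00000037649.9, chr17:34135182-34139101) had 49.6, 66.5 and 83.0 CPM in knockout libraries, against 52.9, 49.96 and 41.1 CPM in control libraries. H2-DMb1 (ENSMUSG00000079547.3, chr17:34153072-34160230) had 54.9, 70.8 and 84.7 CPM in knockout libraries, against 60.0, 52.1 and 37.6 CPM in control libraries. In both genes knockout replicates 2 and 3 were above all controls and replicate 1 lay within them. The log2 fold changes were 0.47 (SE 0.20, adjusted p = 0.301) and 0.49 (SE 0.22, adjusted p = 0.317) by edgeR.

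Across Ciita, Cd74, the classical chains, H2-DMa and H2-DMb1, the order of the control libraries repeated itself, while that of the knockouts did not. All 7 genes had their lowest value in control replicate 3 and their highest control value in control replicate 1. Knockout replicates 2 and 3 were above all controls in 7 of 7, and knockout replicate 1 in 3 of 7. The shares of all genes tested with these orders were not computed. Knockout replicate 1 was the highest library for Ciita and the lowest knockout for the other 6. Over the control mean, the 7 genes stood at 1.03 to 1.66-fold in knockout replicate 1, 1.39 to 1.75-fold in replicate 2 and 1.45 to 1.99-fold in replicate 3. This grouping was made after the values were seen, so the counts over it are partly built in and describe these 7 genes alone.

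The remaining members, H2-DMb2, H2-Oa and H2-Ob, had another order. H2-Ob (ENSMUSG00000041538.15, chr17:34238903-34245907), the DO beta chain, had 8.70, 1.39 and 1.56 CPM in knockout libraries, against 2.55, 2.46 and 1.93 CPM in control libraries. Knockout replicate 1 was above, and knockout replicates 2 and 3 were below, every control. H2-Oa (ENSMUSG00000024334.8, chr17:34092340-34095234), the DO alpha chain, had 33, 12 and 9 counts in knockout libraries, against 8, 12 and 5 counts in control libraries, which is 1.67, 0.523 and 0.360 CPM against 0.352, 0.5 and 0.209 CPM. H2-DMb2 (ENSMUSG00000037548.14, chr17:34143307-34151553) had 6.42, 1.70 and 1.56 CPM in knockout libraries, against 1.36, 1.83 and 1.76 CPM in control libraries. Over the control mean, knockout replicate 1 stood at 3.76-fold for H2-Ob, 4.72-fold for H2-Oa and 3.89-fold for H2-DMb2, while the other knockouts stood between 0.603 and 1.48-fold. The log2 fold changes were 0.74 for H2-Ob (SE 0.70, adjusted p = 0.62), 1.22 for H2-Oa (SE 0.66, adjusted p = 0.399) and 0.95 for H2-DMb2 (SE 0.57, adjusted p = 0.437) by edgeR, and these positive values rested on 1 library. Without knockout replicate 1 they were −0.64, 0.31 and −0.02.

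H2-Eb2, a further beta chain gene outside the 10, was also highest in knockout replicate 1, with 2.98, 0.741 and 0.561 CPM in knockout libraries, against 0.836, 1.08 and 0.837 CPM in control libraries. The share of H2-DMb2 in all DMb counts was 10.5% in knockout replicate 1 (exact 95% interval 8.81 to 12.3%), 2.34% in replicate 2 (1.67 to 3.19%) and 1.81% in replicate 3 (1.29 to 2.47%), against 2.22% (1.51 to 3.14%), 3.40% (2.48 to 4.54%) and 4.47% (3.24 to 5.99%) in control replicates 1, 2 and 3. The intervals cover counting error alone, since PCR copies cannot be told from separate molecules here. The 2 transcripts are 94.6% identical over 1219 aligned bases and share 25.2% of windows of 50 bases, so the split of reads between them is uncertain.

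**Figure D2:**
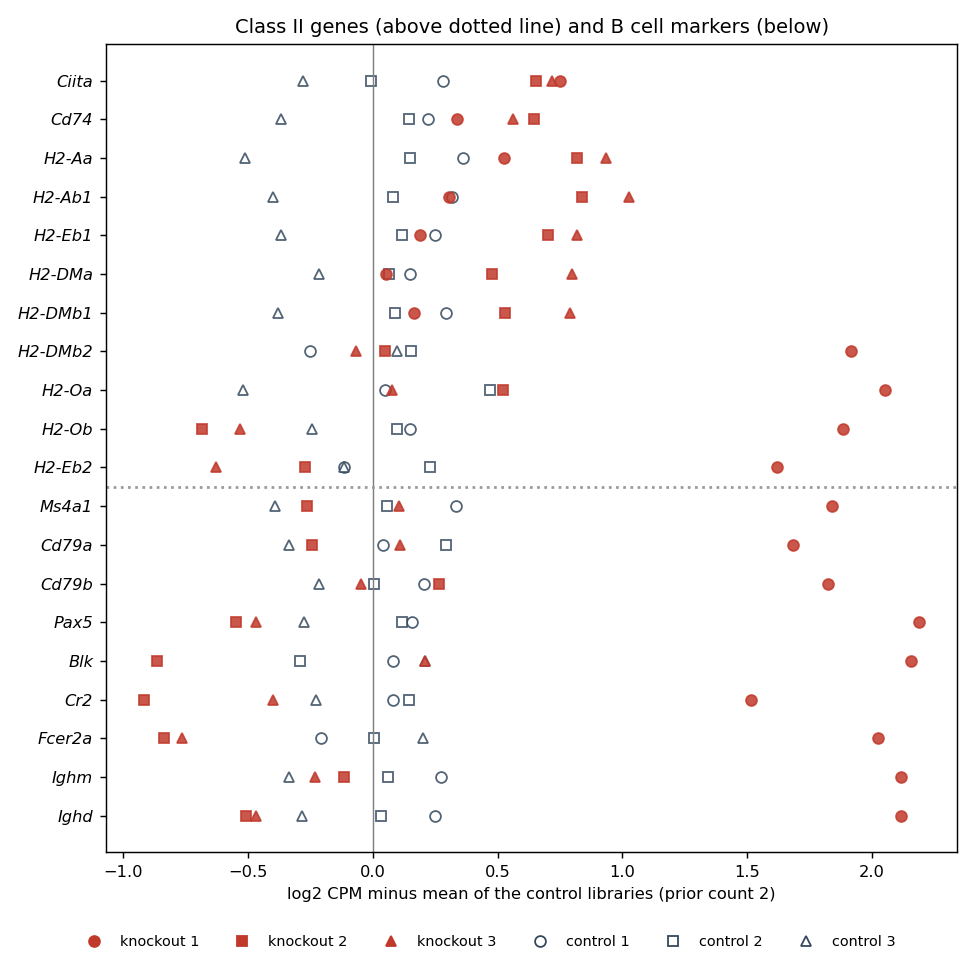
Log2 CPM of each class II gene (with H2-Eb2) and 9 B cell markers minus the mean of the control libraries, with filled red marks for knockout and open dark marks for control libraries and marker shape for the replicate number. Knockout replicate 1 stands apart to the right for H2-DMb2, H2-Oa, H2-Ob, H2-Eb2 and the 9 B cell markers, while Ciita and the abundant class II genes have knockout replicates 2 and 3 to the right of the controls.

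Markers of B cells were highest in the same library. All 10 listed B cell markers were at least 2-fold higher in knockout replicate 1 than in each of the other 5 libraries, as were 3 of 10 members, beside 1.21% of all genes tested. None of 10 T cell markers met that rule. Of 18 macrophage and dendritic cell markers, 11 were tested, and 2 of these met it. Over the 11, log2 CPM minus the control mean averaged 1.47, 0.72 and 0.83 in knockout replicates 1, 2 and 3. The B cell list averaged 1.97, −0.43 and −0.21 in the same order. By this measure knockout replicate 1 was highest in both lists. The summed level of the B cell list was 121, 23.7 and 25.3 CPM in knockout libraries, against 33.9, 31.0 and 24.5 CPM in control libraries. Ighm, the heavy chain of IgM, was the most abundant B cell marker, with 40.3, 8.50 and 7.85 CPM in knockouts, against 11.2, 9.62 and 7.28 CPM in controls. None of the 10 B cell markers passed an unadjusted p of 0.05 in edgeR over the genotypes, and none was at 0 in any library.

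The ratio of H2-Ob counts to counts of Ighd, the heavy chain of IgD on mature B cells, was 0.628, 0.640 and 0.696 in knockouts, against 0.682, 0.766 and 0.754 in controls. The genotypes overlapped in this ratio, which lay between 0.628 and 0.766 while H2-Ob itself lay between 1.39 and 8.70 CPM. Ighd was the gene nearest to H2-Ob in the ranking given below, so a narrow range goes with that choice. Per count of Pax5, H2-Ob was 0.642 to 0.75 in knockouts and 0.776 to 0.807 in controls, without overlap. Per count of Ms4a1 it was 0.459 to 0.754 in knockouts and 0.637 to 0.807 in controls. H2-Aa and Ciita were higher in knockout replicates 2 and 3 than in any control while the B cell list summed to 23.7 and 25.3 CPM there, below control replicates 1 and 2. Ciita was also high, at 85.3 CPM, in knockout replicate 1, where that list summed to 121 CPM. The part of other leukocytes in these values was not tested.

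**Figure D3:**
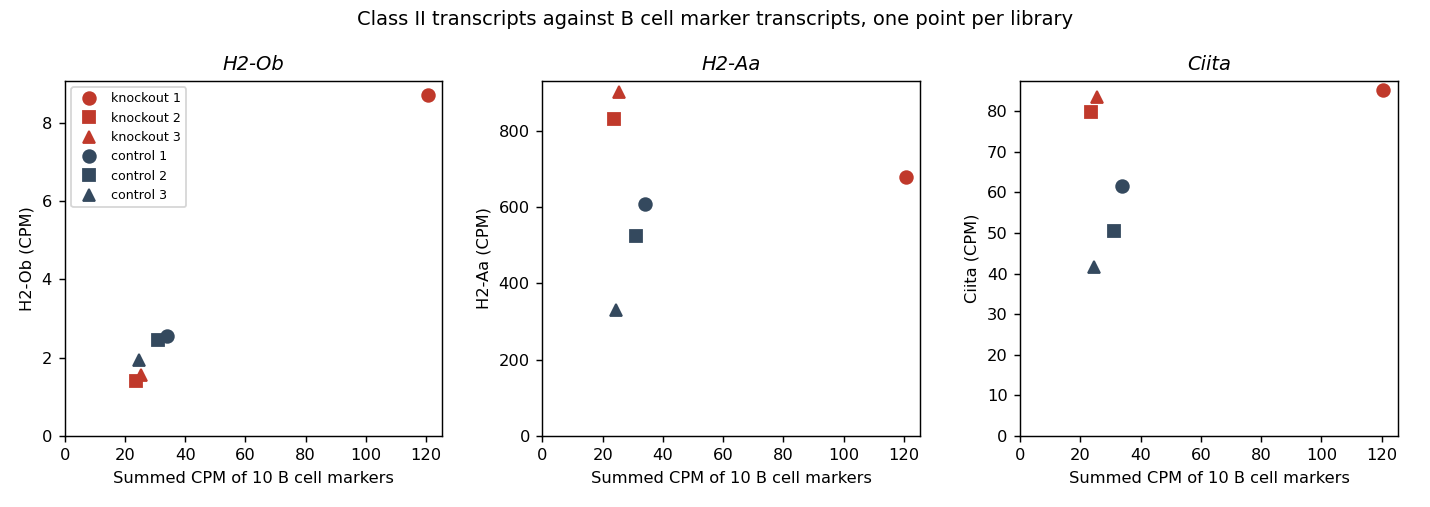
CPM of H2-Ob, H2-Aa and Ciita on the y axes against the summed CPM of 10 B cell markers on the x axis, with 1 point per library, red for knockout and dark for control. H2-Ob is highest at the one library with 121 CPM of B cell markers, while H2-Aa is highest in the libraries with 23.7 and 25.3 CPM and Ciita is at 79.7 to 85.3 CPM in all 3 knockouts, with its highest value at 121 CPM.

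Markers of other leukocytes were higher in knockouts beside the class II genes. Of 7 pan-leukocyte genes, 5 had an unadjusted p below 0.05 in edgeR, all higher in knockouts (9.32% of all genes), and 6 did not overlap (10.0%). Their summed level was 227, 198 and 144 CPM in knockouts, against 142, 112 and 97.5 CPM in controls, which puts knockout replicate 1 highest. Lcp1, an actin bundler of leukocytes, had 47.7, 49.8 and 29.1 CPM in knockouts, against 25.5, 25.4 and 16.03 CPM in controls. The T cell list summed to 259, 799 and 383 CPM in knockouts, against 229, 149 and 122 CPM in controls, with 7 of 10 past the unadjusted threshold and higher, beside 9.32% of all genes. Gzma, a granzyme of cytotoxic lymphocytes, gave most of that sum, with 141, 484 and 226 CPM in knockouts, against 120, 70.5 and 63.7 CPM in controls. Mouse T cells make little class II, so this list is given as the background of leukocytes in the preparation.

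The macrophage and dendritic cell list summed to 130, 144 and 112 CPM in knockouts, against 78.8, 92.2 and 111 CPM in controls, and a single gene gave most of each sum. Of 18 listed genes 11 were tested, 4 of these had an unadjusted p below 0.05, all higher in knockouts (9.32% of all genes), and 5 of the 11 did not overlap (10.0%). Itgax had 8.09, 10.7 and 6.37 CPM in knockouts, against 4.09, 3.33 and 3.43 CPM in controls. Fcgr1, not tested, had 5, 2 and 5 counts in knockouts and 0 in all controls, and Xcr1, Clec9a, Batf3, Zbtb46, Ccr7 and Cx3cr1, markers of dendritic cell subsets and macrophages, were too low to be tested. H2-Aa per count of Itgax was 83.9, 78.0 and 142 in knockouts, against 149, 157 and 96.4 in controls, with no separation of the genotypes. The innate lymphoid list summed to 70.0, 40.6 and 48.8 CPM in knockouts, against 86.7, 81.1 and 80.4 CPM in controls. Il22, which that list holds, was at 0 in all 6 libraries.

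Epithelial markers were high in both genotypes. Their sum was 11748, 13520 and 13234 CPM in knockouts, against 11200, 10724 and 10888 CPM in controls, and 1 of 8, Krt20, had an unadjusted p below 0.05 and was higher, beside 9.32% of all genes. Per count of Epcam, Ciita gave 0.0514, 0.0351 and 0.0345 in knockouts, against 0.0343, 0.0321 and 0.0266 in controls, so the knockouts were above the controls in this ratio too, by little in replicates 2 and 3. Cd74 per count of Epcam was 0.769, 0.697 and 0.617 in knockouts, against 0.655, 0.710 and 0.499 in controls, and here the genotypes overlapped. H2-Aa per count of Epcam was 0.409, 0.367 and 0.373 in knockouts, against 0.338, 0.333 and 0.211 in controls, without overlap. Per count of Ptprc, Cd74 was 12.9, 20.0 and 23.0 in knockouts, against 15.4, 20.1 and 14.1 in controls, and the genotypes overlapped again. H2-Aa per count of Ptprc was 6.87, 10.5 and 13.9 in knockouts, against 7.93, 9.42 and 5.97 in controls. These overlapped as well, with knockout replicate 1 within the controls. Ciita per count of Ptprc was 0.862, 1.01 and 1.28 in knockouts, against 0.804, 0.907 and 0.753 in controls, with knockout replicate 1 within the controls. Of the 7 pan-leukocyte genes Ptprc rose least, with a knockout mean 1.30-fold of the control mean, against 1.73 to 2.33-fold for the others. Ratios to the others were not computed, so these ratios hold for Ptprc alone. The counts do not assign a transcript to a cell, and whether epithelium or leukocytes gave the higher class II levels was not tested.

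Leaving out knockout replicate 1 narrowed the intervals of most members. The test then called 4 of 10 higher in knockouts, Ciita (adjusted p = 0.0268), H2-Ab1 (0.0245), H2-DMa (0.0234) and H2-Eb1 (0.0308) by edgeR, beside 10.0% of the 15470 genes then tested. H2-Aa, Cd74 and H2-DMb1 had adjusted p of 0.0522, 0.0738 and 0.0591 in the same fit. H2-Ob had a log2 fold change of −0.64 there, with an adjusted p of 0.138 by edgeR. By unadjusted p, 7 of 10 members passed and were higher, beside 17.9% of all genes, and H2-Ob passed and was lower. The omission also raised the number of genes called in all, to 2700 from 9, so a gain in calls was not particular to the class II genes.

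**Figure D4:**
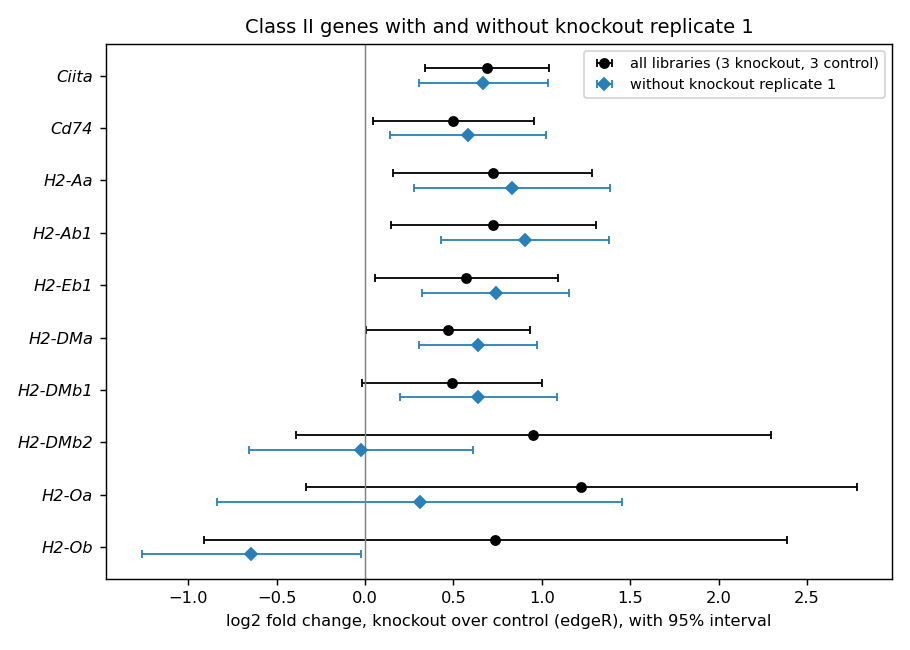
Log2 fold change of each gene, knockout over control, with its 95% interval from edgeR, for all 6 libraries (black circles) and without knockout replicate 1 (blue diamonds). The estimates of Ciita to H2-DMb1 stay positive, while those of H2-DMb2, H2-Oa and H2-Ob drop to −0.02, 0.31 and −0.64.

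Sex was not balanced between the genotypes. By Xist and Ddx3y counts, which differ from the sexes in the series text for 3 libraries, knockout replicates 2 and 3 and control replicate 3 were female, and knockout replicate 1 and control replicates 1 and 2 were male. Among the female libraries 8 of 10 members were higher in both knockouts than in the control, beside 40.0% of all genes, with H2-Aa at 2.62-fold, H2-Ab1 at 2.52-fold, Cd74 and Ciita at 1.96-fold. Among the male libraries 6 of 10 members were higher in the knockout than in both controls, beside 34.5% of all genes. They included H2-DMb2, H2-Oa and H2-Ob, at 4.02, 3.92 and 3.47-fold, whose high library, knockout replicate 1, was the only male knockout. The rest were Ciita at 1.52-fold, H2-Aa at 1.20-fold and Cd74 at 1.11-fold of the male controls. H2-Ab1 at 1.07-fold, H2-Eb1 at 1.00-fold, H2-DMa at 0.964-fold and H2-DMb1 at 0.979-fold were not above both male controls. Ciita was higher in knockouts in both strata, and the control lowest for the 7 abundant members was the female one. Each stratum holds 1 library of one genotype, so these are values without a test. With this sex as a term, 4 of 10 members had an unadjusted p below 0.05 in edgeR, beside 7.27% of all genes, and none was called.

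Upstream of Ciita, interferon-gamma signals through its receptor, Jak1 and Jak2 and induces Irf1, while Prdm1 (Blimp-1) is known to repress Ciita in plasma cells. Of 10 genes of this input, 1 was called, Prdm1, with 43.0, 52.7 and 47.6 CPM in knockouts, against 23.2, 20.1 and 20.3 CPM in controls (log2 fold change 1.17, SE 0.12, adjusted p = 0.046 by edgeR). The call was lost with the replicate block (adjusted p = 0.183) and without any single library other than knockout replicate 1, where the adjusted p by edgeR ran from 0.00116 to 0.399 over the libraries left out. Prdm1 and Ciita each separated the genotypes without overlap, with the knockouts higher. Irf1 had 220, 314 and 294 CPM in knockouts, against 169, 164 and 154 CPM in controls (log2 fold change 0.76, adjusted p = 0.115 by edgeR). In all, 3 of the 10 were past an unadjusted p of 0.05, all higher in knockouts, beside 9.32% of all genes, while the receptor chains Ifngr1 and Ifngr2 and the kinases Jak1 and Jak2 were not. The median of the list was 0.11.

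Of 7 genes of the DNA-binding partners of Ciita, 1 was past the unadjusted threshold, beside 9.32% of all genes. Rfx5 had 11.9, 13.9 and 14.7 CPM in knockouts, against 10.3, 11.04 and 10.3 CPM in controls (log2 fold change 0.36, SE 0.14, adjusted p = 0.267 by edgeR). Rfxap, Rfxank, Nfya, Nfyb, Nfyc and Creb1 were not past the unadjusted threshold, with log2 fold changes between −0.14 and 0.12. Rfxank varied among knockouts, at 36.2, 19.8 and 25.6 CPM, against 32.2, 28.7 and 27.5 CPM in controls. The median of the 7 was −0.08.

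Of 8 genes that process antigen or invariant chain, 3 had an unadjusted p below 0.05, all higher in knockouts, beside 9.32% of all genes, and the median was 0.54. Sppl2a, the protease that clears the last membrane stub of Cd74, had 302, 408 and 353 CPM in knockouts, against 241, 216 and 216 CPM in controls (log2 fold change 0.66, adjusted p = 0.12 by edgeR). Ctss, the cathepsin that cuts the invariant chain, had 126, 177 and 177 CPM in knockouts, against 137, 116 and 124 CPM in controls, and Ctsb had 306, 630 and 597 CPM in knockouts, against 416, 368 and 363 CPM in controls. Knockout replicate 1 lay within the controls for Ctss, as for H2-DMa and H2-DMb1, and below them for Ctsb. Named after its values were seen, Ctse, an aspartic protease of endosomes, had 2.68, 3.27 and 12.7 CPM in knockouts, against 0.308, 0.333 and 0.293 CPM in controls (log2 fold change 4.30, adjusted p = 0.0969 by edgeR).

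Genes that help or limit presentation at the surface were mixed. Of 8 in the table, 4 had an unadjusted p below 0.05, all higher in knockouts, beside 9.32% of all genes, and the median was 0.83. Cd274 (PD-L1) had 8.09, 37.7 and 36.1 CPM in knockouts, against 4.18, 3.71 and 3.47 CPM in controls (log2 fold change 2.85, adjusted p = 0.113 by edgeR). Cd40, a costimulatory receptor, had 1.52, 2.13 and 1.44 CPM in knockouts, against 0.220, 0.375 and 0.167 CPM in controls (log2 fold change 2.71, adjusted p = 0.072 by edgeR). Cd80 and Icosl were the other 2, at log2 fold changes of 1.51 and 0.76. Cd86, the partner of Cd80, had 1.21, 0.349 and 0.320 CPM in knockouts, against 0.484, 0.25 and 0.460 CPM in controls. March1, a ubiquitin ligase that removes class II from the surface of B cells and dendritic cells, had 3.84, 0.610 and 1.12 CPM in knockouts, against 1.10, 1.04 and 0.795 CPM in controls, so its high library was the one with high H2-Oa and H2-Ob.

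Outside the members, 11705 genes of at least 2 mean CPM were ranked by the root-mean-square difference of their centred log2 CPM from a member over the 6 libraries. The nearest to Ciita were Gsap (0.0875), Stk10 (0.0945), Arhgef40 (0.0968), Itgam (0.105) and Rmdn2 (0.106), and the nearest to Cd74 were Aaas (0.0736), Mcm10 (0.0800), Mdfic (0.0861), Sun2 (0.0994) and Tctn1 (0.101). Among members, Cd74 was 0.121 from H2-Eb1, 0.130 from H2-DMb1, 0.1597 from H2-Aa and 0.170 from Ciita. The 5 genes nearest to Cd74 were closer than these members. They were picked as the smallest of 11705 distances, so no conclusion is drawn from that. H2-Ob, taken up after its values were seen, had Ighd (0.107), Pax5 (0.111), Cr2 (0.171) and Bank1 (0.219) among its nearest genes. It was 0.361 from H2-DMb2, 0.488 from H2-Oa and 0.848 from Ciita. These distances describe 6 libraries and are given without a test.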

How the data were processed

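RNA was sequenced from 6 libraries, 3 knockout and 3 control. STAR 2.5.0a with mm10, after bcl2fastq 2.17, Trim Galore and FastQC, is named in the submitters' processing notes. How reads were counted, on which strand and with which annotation is not given in the sources used here. Antisense and overlapping reads therefore cannot be told apart. Both poly-A selection and a kit for removal of ribosomal RNA are named. The authors deposited whole-number counts per gene, with no normalization and with locations. Sample titles gave genotype and replicate number, and sex was taken from the design text or from Xist and Ddx3y.

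Counts were tested with edgeR 4.0.16 (R 4.3.3), using trimmed-mean scaling, the default expression filter (minimum count 10) and genotype as the sole term. P-values were adjusted over all 15068 genes. CPM is the scaled count per 1000000. Standard errors were the absolute log2 fold change over the square root of F. Exon lengths are the merged protein-coding exons of GENCODE vM21 within the deposited span, and 1 of 10 members matched that release with its version. Alternatives were DESeq2 1.42.0, limma 3.58.1, other scalings and filters, sex terms, a replicate block and leaving out each library. The script was tested on simulated data. Libraries with the same replicate number correlated at 0.117, 0.119 and 0.149 in their deviations from the group means, against −0.143 to 0.00929 for other pairs, so the block is given where it moved a count. The labels give no basis for the numbers.

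The members, lists and motifs were chosen with earlier results of these data known, and the members were given. Named are all members, the called and up to 3 most abundant tested genes of each list, any gene of the lists on DNA-binding partners, interferon-gamma input and costimulation, and the 5 genes nearest to Ciita and to Cd74. Exceptions are stated where they occur. Some genes that the rule names are not reported here.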

Additional observations from a re-analysis of the deposited data

How the results depend on the processing

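Under 16 alternatives Ciita, Cd74, H2-Aa, H2-Ab1, H2-Eb1, H2-DMa and H2-DMb1 stayed higher in knockouts, as did H2-Oa in each alternative that tested it. Without knockout replicate 1, H2-DMb2 and H2-Ob turned negative, and leaving out each library in turn gave log2 fold changes of −0.022 to 1.30 for H2-DMb2 and −0.64 to 1.14 for H2-Ob. The cause was not tested. Leaving out 1 library gave 0 to 4 members called, 2 to 8 past the unadjusted threshold and 0 to 2700 genes called in all. The 8, without knockout replicate 1, were 7 higher and 1 lower in knockouts. With library totals, 3 members were past the unadjusted threshold and 16 genes were called. With the replicate block the 2 values were 2 members and 0 genes, and with sex by Xist and Ddx3y they were 4 members and 11 genes. With sex per the series text 4 genes were called. DESeq2's Wald test called 1 member and 836 genes, limma-voom 0 members and 5 genes, and the fit with no filter 0 members and 284 genes. Where a fit left 2 libraries in a group, their spread was pooled with that of the other group. H2-Oa, at 5 to 33 counts, is limited by depth.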

Other observations

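The symbol column of the deposited table holds dates in place of some gene names. It has 13 entries that read as a day of March and 14 that read as a day of September, and 6 of these occur more than once. March1 and March8 were therefore matched by Ensembl identifier. March8, which like March1 acts on class II and other membrane proteins, had 136, 124 and 128 CPM in knockout libraries, against 131, 146 and 147 CPM in control libraries.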
